A study of Mus musculus with 2 samples.

Results

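Genes for the subunits of the oxidative phosphorylation complexes were described in naive CD8 and naive CD4 T cells of the mouse, the resting precursors of cytotoxic and helper T cells, in a series whose title concerns 5-hydroxymethylcytosine in T cell development. There was 1 library of ribosomal-RNA-depleted total RNA for naive CD8 cells and 1 for naive CD4 cells. Both cell types were sorted from spleen and lymph nodes as CD62Lhi, CD44lo, CD25- and negative for the Foxp3 GFP reporter, a gate that selects against activated, memory and regulatory T cells. All cells came from Foxp3-GFP mice on a C57/BL6 background, so both groups carried the reporter allele. Neither the age or sex of the mice nor any pooling of animals is stated in the labels.

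The members were the gene symbols that begin with Nduf followed by a, b, c, s or v, with Uqcr, with Cox4, Cox5, Cox6, Cox7 or Cox8, or with Atp5, together with Sdha, Sdhb, Sdhc and Sdhd. This took 90 of the 23167 symbols. By prefix, 42 belong to complex I, 4 to complex II, 8 to complex III, 19 to complex IV and 17 to complex V. The label of oxidative phosphorylation subunits holds for 83 of them. The other 7 are not subunits: Ndufaf1, Ndufaf2, Ndufaf3 and Ndufaf4 are assembly factors of complex I, Cox4nb (also called Emc8) belongs to a membrane protein complex of the endoplasmic reticulum, and Atp5s and Atp5sl are not counted among the structural parts of ATP synthase. Levels are RPKM as deposited, the reads of a gene scaled to 1000 bases of its length and to 1000000 reads of its library. A member was compared where it reached 1 RPKM in at least 1 library, which 81 did.

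Oxidative phosphorylation makes ATP in the inner mitochondrial membrane. Complex I takes electrons from NADH and complex II takes them from succinate, complex III hands them from ubiquinol to cytochrome c, and complex IV passes them to oxygen. Complexes I, III and IV pump protons, and complex V, the ATP synthase, uses the return of these protons to make ATP. Most subunits are encoded in the nucleus and a small set is encoded in mitochondrial DNA. The nuclear subunits include catalytic ones shared with bacteria and accessory ones that surround this core. Naive T cells are quiescent and draw much of their ATP from this route, and they turn toward aerobic glycolysis when activated.

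The deposited RPKM rest on 23853921 reads in the CD8 library and 24741945 in the CD4 library. The RPKM summed to 530342 in CD8 and 457587 in CD4, and the most abundant symbol, the small RNA Rmrp, took 3.45% of the CD8 sum and 2.15% of the CD4 sum. The labelled cell types matched their defining markers. Cd8a was at 518 RPKM in CD8 cells and 2.50 in CD4 cells, Cd4 was at 8.89 RPKM in CD8 cells and 305 in CD4 cells, and the T cell gene Cd3e was at 149 RPKM in CD8 cells and 142 in CD4 cells. Among markers of other cells, Cd79a and Ms4a1 of B cells, Ncr1 and Klra8 of NK cells, Cd14 and Csf1r of myeloid cells and Hbb-b1 and Hba-a1 of red cells were under 1 RPKM in both libraries. Cd79b, also a B cell gene, was at 28.8 RPKM in CD8 cells and 2.14 in CD4 cells, and the NK gene Klrb1c at 1.36 RPKM in CD8 cells and 0.0308 in CD4 cells. The myeloid gene Lyz2 was at 2.15 RPKM in CD8 cells and 1.65 in CD4 cells, the myeloid gene Itgam at 0.559 RPKM in CD8 cells and 1.62 in CD4 cells, and the platelet gene Itga2b at 0.824 RPKM in CD8 cells and 1.04 in CD4 cells. The part of such cells in the members' values was not tested. With 1 library per cell type no difference has a replicate check and no p-value is given. In such sorted bulk samples, fewer cells of a type and less RNA per cell cannot be told apart.

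Most subunit genes had higher levels in CD8 than in CD4, by small amounts and unequally between the complexes. The difference used throughout is log2((CD8 RPKM + 1)/(CD4 RPKM + 1)), which is positive where CD8 was higher. Of the 81 compared members 66 were above 0, where 40.5% of all 10228 compared genes were, and 15 were below 0, where 59.5% of all compared genes were. Their median was 0.27, against -0.08 for all compared genes, and they ranged from -0.57 for Cox7a2l to 2.12 for Uqcrq. Set against the median gene, which leaves equal numbers of genes on either side, 71 members were above it. The order of levels was much the same in both libraries: log2(RPKM + 1) of the members correlated with r = 0.96 (Pearson) and rho = 0.96 (Spearman) across 81 genes, which share both libraries and are not independent replicates.

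At least a 2-fold difference on this scale was reached by 4 members toward CD8, where 3.07% of all compared genes reached it, and by 0 members toward CD4, where 2.41% did. Uqcrq, Ndufc1, Ndufc2 and Ndufa4 were the 4. At least a 1.5-fold difference was reached by 16 members toward CD8, where the background was 7.47%, and by 0 toward CD4, where it was 8.07%. The further 12 were Atp5e, Cox5b, Cox6b1, Cox8a, Ndufa1, Ndufa2, Ndufa3, Ndufa11, Ndufb4, Ndufs4, Ndufs6 and Uqcr10. For single members the fold is the ratio of the deposited RPKM, given with an exact (Clopper-Pearson) 95% interval that covers counting error only and compares the libraries, not the cell types. By these intervals 54 of the 81 compared members were higher in CD8, where 25.9% of the compared genes were, 10 were higher in CD4, where 43.5% were, and 17 had an interval that holds 1.

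**Figure D1:**
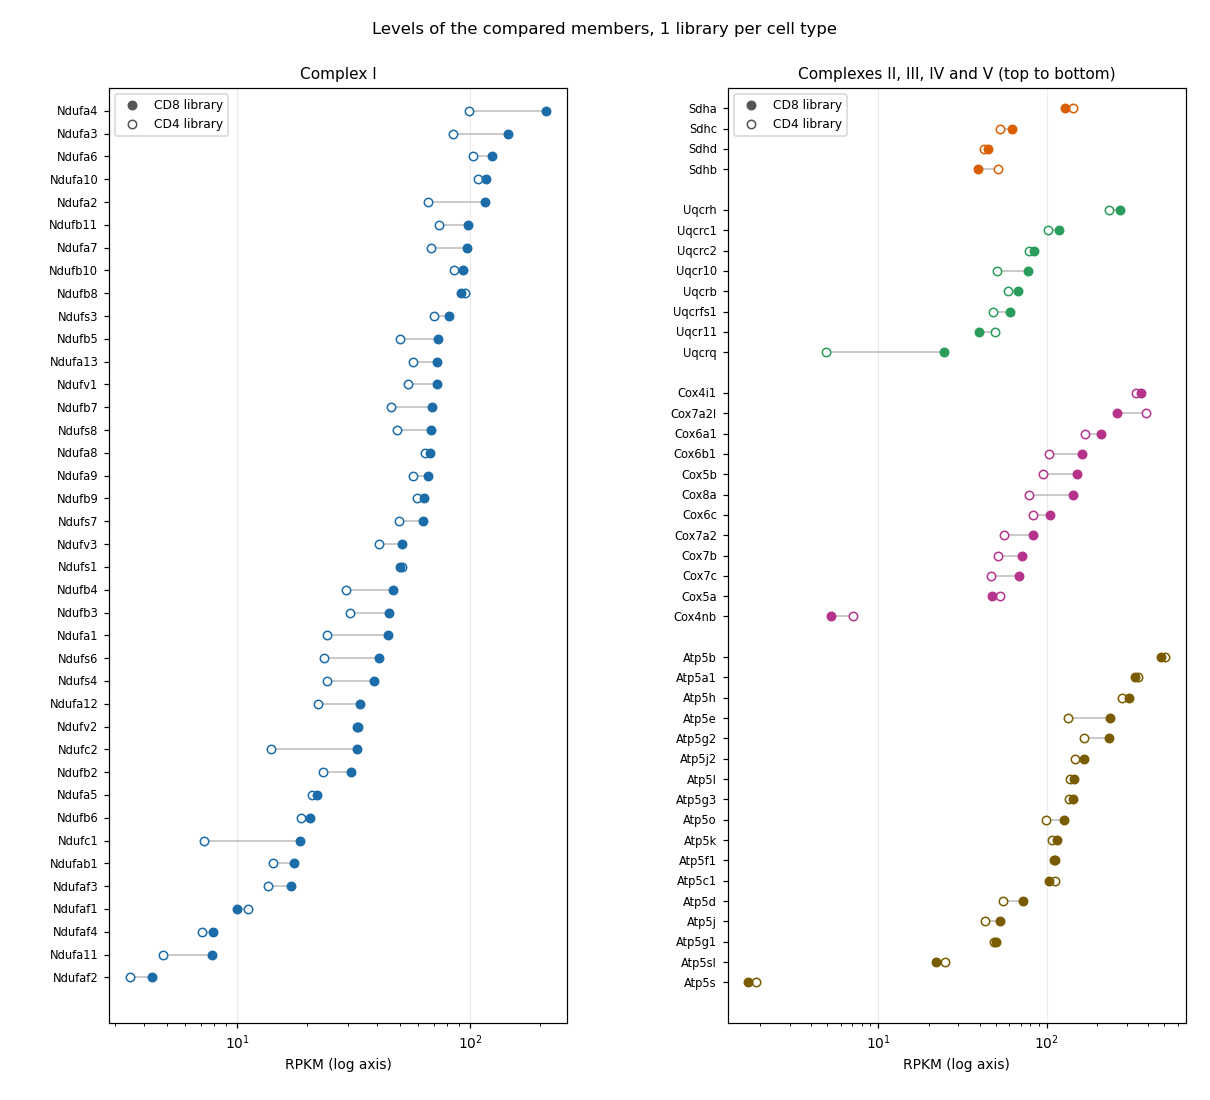
Level of the compared members in RPKM on a log axis, without genes not reported here by name, with complex I on the left and complexes II, III, IV and V from top to bottom on the right; filled points are the CD8 library, open points the CD4 library, and a grey line joins the 2 values of a gene. The widest gap is that of Uqcrq, at 24.6 RPKM in CD8 cells and 4.88 in CD4 cells, while Atp5b, the highest member, lies at 479 RPKM in CD8 cells and 504 in CD4 cells.

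These results depend on the scale. With each library rescaled to an RPKM sum of 1000000, the median of all compared genes moved by -0.21 and stood at -0.29, and 47 of the 81 members were above 0, where 23.0% of all compared genes then were. The members' median lay 0.35 above that of all genes as deposited and 0.37 above it after rescaling. Then 2 members were at least 2-fold higher in CD8, where 2.79% of all compared genes were, and 8 at least 1.5-fold, where 5.59% were. Toward CD4, 0 reached 2-fold, where 5.05% did, and 2 reached 1.5-fold, where 19.5% did. The 4 members past 2-fold as deposited also became 2 when each gene was centred on genes of like length or with a pseudocount of 5 RPKM. After rescaling, 35 counting intervals lay above 1, where 13.9% of the compared genes' intervals did, 24 lay below 1, where 63.7% did, and 22 held 1. The sign of 19 members turned under this rescaling, and the sums and medians that turned with it are named beside their values.

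Respiratory genes share known promoter elements, and the members lay mostly on one side. The promoters of a few members on both sides of 0 are therefore shown, picked after their values were seen and not by rank. They run from 250 bases before to 50 bases after the start of the gene, from RefSeq on GRCm38.p6, a later build than the mm9 named for the reads. Capitals mark matches, on either strand, to CCGGAAG (the core bound by GABP and other ETS factors), CGCNTGCGC (NRF1) or AAGATGGCG (YY1). The NRF1 letters are nearly palindromic and can overlap YY1 letters at a shared GCG, so a promoter was counted once for each motif. Ndufc1 (chr3:51408906-51409205 on the minus strand) held 1 YY1 match and Ndufa4 (chr6:11907401-11907700 on the minus strand) held none, and both had over a 2-fold excess in CD8.
Ndufc1: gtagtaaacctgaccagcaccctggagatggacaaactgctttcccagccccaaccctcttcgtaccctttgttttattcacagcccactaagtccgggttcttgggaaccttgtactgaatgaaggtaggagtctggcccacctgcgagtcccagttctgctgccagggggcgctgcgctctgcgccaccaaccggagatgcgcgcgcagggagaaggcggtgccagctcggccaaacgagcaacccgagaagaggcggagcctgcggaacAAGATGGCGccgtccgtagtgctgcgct
Ndufa4: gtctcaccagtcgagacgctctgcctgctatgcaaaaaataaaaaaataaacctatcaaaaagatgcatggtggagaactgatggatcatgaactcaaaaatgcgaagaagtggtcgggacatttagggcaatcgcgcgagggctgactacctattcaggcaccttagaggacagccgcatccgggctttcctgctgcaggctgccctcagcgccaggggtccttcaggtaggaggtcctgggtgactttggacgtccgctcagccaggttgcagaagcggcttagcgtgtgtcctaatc
Ndufb4 (chr16:37654319-37654618 on the minus strand) held 3 NRF1 matches and Cox8a (chr19:7217567-7217866 on the minus strand) held 2 ETS matches, and both had over a 1.5-fold excess in CD8.
Ndufb4: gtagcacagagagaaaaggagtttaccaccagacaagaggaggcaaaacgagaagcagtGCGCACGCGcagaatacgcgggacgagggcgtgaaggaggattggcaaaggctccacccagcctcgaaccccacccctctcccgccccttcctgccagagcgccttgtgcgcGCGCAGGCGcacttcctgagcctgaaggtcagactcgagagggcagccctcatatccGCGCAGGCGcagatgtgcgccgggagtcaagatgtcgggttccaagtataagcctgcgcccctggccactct
Cox8a: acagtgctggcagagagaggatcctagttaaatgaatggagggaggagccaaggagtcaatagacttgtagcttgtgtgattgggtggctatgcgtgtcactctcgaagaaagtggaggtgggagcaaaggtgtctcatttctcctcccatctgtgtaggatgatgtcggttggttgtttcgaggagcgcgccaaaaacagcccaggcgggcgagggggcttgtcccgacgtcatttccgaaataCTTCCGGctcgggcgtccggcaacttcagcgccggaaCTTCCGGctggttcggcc
Cox7a2l (chr17:83514284-83514583 on the minus strand), Sdha (chr13:74350191-74350490 on the minus strand) and Sdhb (chr4:140961021-140961320 on the plus strand) were higher in CD4. They held 0, 3 and 1 matches.
Cox7a2l: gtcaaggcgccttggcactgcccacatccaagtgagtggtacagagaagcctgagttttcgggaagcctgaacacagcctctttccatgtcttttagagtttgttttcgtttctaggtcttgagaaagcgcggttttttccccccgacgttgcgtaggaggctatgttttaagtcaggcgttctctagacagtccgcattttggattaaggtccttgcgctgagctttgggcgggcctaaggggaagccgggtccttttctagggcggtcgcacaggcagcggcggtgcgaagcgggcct
Sdha: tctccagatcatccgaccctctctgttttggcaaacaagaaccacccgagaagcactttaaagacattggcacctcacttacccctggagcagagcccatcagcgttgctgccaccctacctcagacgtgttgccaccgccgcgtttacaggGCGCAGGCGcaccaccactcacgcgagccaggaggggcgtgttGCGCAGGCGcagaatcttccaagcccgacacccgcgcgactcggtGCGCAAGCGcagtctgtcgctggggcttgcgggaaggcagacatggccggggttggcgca
Sdhb: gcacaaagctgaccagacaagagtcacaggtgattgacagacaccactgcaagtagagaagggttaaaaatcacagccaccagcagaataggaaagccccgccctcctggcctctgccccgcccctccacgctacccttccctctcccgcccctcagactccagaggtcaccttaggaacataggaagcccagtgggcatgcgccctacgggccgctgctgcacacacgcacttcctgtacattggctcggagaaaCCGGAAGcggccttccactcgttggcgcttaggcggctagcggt
Among the promoters shown, NRF1 and ETS letters therefore stood on both sides, and YY1 letters only in that of Ndufc1. Outside these, YY1 letters stood in promoters of further members higher in CD8 and in that of Atp5sl, a non-subunit higher in CD4.

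A promoter was listed for 74 of the 90 members, and 36 of them held at least 1 of the 3 motifs. Of these 36 genes 30 were higher in CD8 and 5 higher in CD4, and Ndufs5 was not compared. Of all compared members, with or without a motif, 81.5% were higher in CD8, and of all compared genes 40.5% were. NRF1 letters stood in 20 member promoters (27.0%), against 6.47% of all 27025 promoters and 15.7% of the 8160 that belong to compared genes. YY1 letters stood in 7 (9.46%), against 1.49% of all promoters and 3.85% of those of compared genes. ETS letters stood in 16 (21.6%), against 9.12% of all promoters but 21.2% of those of compared genes. The median difference was 0.14 in the 19 compared members with NRF1 letters and 0.34 in the 50 without, 0.18 in the 16 with ETS letters and 0.32 in the 53 without, and 0.34 in the 7 with YY1 letters and 0.31 in the 62 without.

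Complex I, the NADH dehydrogenase, had most of its genes higher in CD8. Of its 40 compared symbols 37 were above 0 as deposited, where 40.5% of all compared genes were, and 28 after rescaling, where 23.0% were. As deposited 10 passed 1.5-fold toward CD8, where 7.47% of all compared genes did. The median of the 40 symbols was 0.34, or 0.14 after rescaling. Their RPKM summed to 2472 in CD8 and 1853 in CD4, a ratio of 1.33. The counting interval lay above 1 for 30 of them, where the background was 25.9%, and below 1 for 0, where it was 43.5%. After rescaling it lay above 1 for 21 of them, against a background of 13.9%, and below 1 for 7, against 63.7%.

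The 7 nuclear core subunits, which carry the flavin and the iron-sulfur clusters, had the smallest median of the subunit groups of complex I. It was 0.22, 6 of 7 were above 0 and none reached 1.5-fold. After rescaling the median was 0.01 and 4 of 7 were above 0. Centred on genes of like length, the core median was 0.13 and that of the Ndufb subunits 0.19. That of the other accessory subunits, Ndufa4 left aside, was 0.47. Above 0 were then 6 of 7, 6 of 10 and 16 of 18 in this order. Ndufs8, which binds iron-sulfur clusters close to the ubiquinone site, was at 67.7 RPKM in CD8 cells and 48.6 in CD4 cells. Ndufv1, the flavin-binding subunit that accepts electrons from NADH, was at 72.2 RPKM in CD8 cells and 54.2 in CD4 cells. Ndufs7, which carries the last cluster of the chain, was at 63.1 RPKM in CD8 cells and 49.5 in CD4 cells. These 3 were between 1.27-fold and 1.39-fold higher in CD8. Ndufs3 was at 81.5 RPKM in CD8 cells and 69.8 in CD4 cells. Ndufv2 was at 32.9 RPKM in CD8 cells and 32.7 in CD4 cells, and Ndufs1, the largest core subunit, at 49.95 RPKM in CD8 cells and 51.0 in CD4 cells. The intervals of Ndufv2 and Ndufs1 hold 1.

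Accessory subunits of complex I gave the larger differences. The 18 compared ones outside the Ndufb group, Ndufa4 left aside, were all above 0, with a median of 0.55, and 8 reached 1.5-fold; after rescaling 15 of the 18 were above 0. Ndufc1, a small subunit of the membrane arm, was at 18.7 RPKM in CD8 cells and 7.20 in CD4 cells, a 2.60-fold difference (1.97 to 3.46). Ndufc2, its partner in the membrane arm, was at 32.7 RPKM in CD8 cells and 14.0 in CD4 cells, a 2.33-fold difference (2.0 to 2.73). Both stand at low levels for the complex, so fewer reads lie behind them than behind most members: the Ndufc1 interval rests on 183 reads in CD8 and 73 in CD4. Ndufa1, a membrane-arm subunit encoded on the X chromosome, was at 44.4 RPKM in CD8 cells and 24.4 in CD4 cells (1.82-fold, 1.57 to 2.11). Ndufa2, a subunit of the matrix arm, was at 116 RPKM in CD8 cells and 65.7 in CD4 cells (1.76-fold, 1.62 to 1.92). Ndufa3, of the membrane arm, was at 145 RPKM in CD8 cells and 84.6 in CD4 cells (1.72-fold, 1.57 to 1.89). Ndufa2 and Ndufa3 lay above the median level of complex I in both libraries, 57.2 RPKM in CD8 cells and 47.2 in CD4 cells, and Ndufa1 lay below it in both.

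Ndufs6, which helps to join the NADH-oxidising part to the rest of the matrix arm, was at 40.7 RPKM in CD8 cells and 23.5 in CD4 cells (1.73-fold, 1.5 to 1.99). Ndufs4, of the same arm and known for mutations in Leigh syndrome, was at 38.9 RPKM in CD8 cells and 24.4 in CD4 cells (1.59-fold, 1.46 to 1.73). Ndufa11, a membrane-arm subunit, was at 7.84 RPKM in CD8 cells and 4.81 in CD4 cells (1.63-fold, 1.41 to 1.88). The level of Ndufa11 needs care, because its RPKM was computed over 2657 bases while the annotated transcript spans 545. Ndufa12 was at 33.9 RPKM in CD8 cells and 22.3 in CD4 cells (1.52-fold, 1.31 to 1.76), and with 1 RPKM added to both it lay just under the 1.5-fold size, at 0.58 on the log2 scale. At the small end, Ndufa8 was at 67.3 RPKM in CD8 cells and 64.2 in CD4 cells, and Ndufa5 at 22.1 RPKM in CD8 cells and 21.0 in CD4 cells. Ndufab1, the mitochondrial acyl carrier protein, was at 17.6 RPKM in CD8 cells and 14.3 in CD4 cells. The intervals of Ndufa8, Ndufa5 and Ndufab1 hold 1. Ndufa7, Ndufa9, Ndufa13 and Ndufv3 lay between 1.17-fold and 1.43-fold.

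The 10 Ndufb subunits, all of the membrane arm, had a median of 0.40 and 9 of 10 were above 0; after rescaling 6 of 10 were. Ndufb4 was at 46.7 RPKM in CD8 cells and 29.5 in CD4 cells (1.58-fold, 1.37 to 1.82) and was the 1 member of the group past 1.5-fold. Ndufb7, Ndufb3 and Ndufb5 came next, at 1.49-fold, 1.47-fold and 1.46-fold. Ndufb11 was at 98.2 RPKM in CD8 cells and 73.8 in CD4 cells. Ndufb2, Ndufb6, Ndufb9 and Ndufb10 lay between 1.07-fold and 1.33-fold. Ndufb8 alone lay below 0, at 91.4 RPKM in CD8 cells and 94.9 in CD4 cells, with an interval that holds 1.

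Ndufa4 was named for complex I, but later work assigned it to complex IV. It was the highest symbol of the complex I prefix in CD8 and had the largest ratio among members over 100 RPKM there, at 212 RPKM in CD8 cells and 98.5 in CD4 cells, a 2.16-fold difference (2.01 to 2.31). Its paralog Ndufa4l2, a gene induced by hypoxia, was listed at 0 in both libraries. Ndufa6 and Ndufa10 were the other most abundant names of the prefix beside Ndufa3, at 124 RPKM in CD8 cells and 103 in CD4 cells for Ndufa6, and at 117 RPKM in CD8 cells and 108 in CD4 cells for Ndufa10.

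The 4 assembly factors of the prefix, which build the complex and are not part of it, stood at low levels. Ndufaf2, the lowest compared symbol of the prefix, was at 4.34 RPKM in CD8 cells and 3.47 in CD4 cells, and Ndufaf4 at 7.92 RPKM in CD8 cells and 7.08 in CD4 cells. Ndufaf3 was at 17.1 RPKM in CD8 cells and 13.5 in CD4 cells, and Ndufaf1 at 9.97 RPKM in CD8 cells and 11.1 in CD4 cells. None of the 4 reached 1.5-fold. Ndufs5, an accessory subunit, was listed at 0 in both libraries. A 0 in these files is not read as low expression. Of the 50-base windows of the Ndufs5 transcript 41.2% also occur in the annotated gene BC002163, which was at 4.32 RPKM in CD8 cells and 2.35 in CD4 cells, and the part of such shared sequence in the 0 was not tested.

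Complex II, the succinate dehydrogenase, has no mitochondrially encoded subunit and also works in the TCA cycle. Its 4 genes lay on both sides of 0. The catalytic matrix subunits were both higher in CD4. Sdha, the flavoprotein that oxidises succinate, was at 128 RPKM in CD8 cells and 144 in CD4 cells, which is 1.12-fold higher in CD4 (1.09 to 1.15). Sdhb, the iron-sulfur subunit, was at 39.4 RPKM in CD8 cells and 51.2 in CD4 cells, which is 1.3-fold higher in CD4 (1.2 to 1.41). Both kept this direction after centring on the median gene and after rescaling. The membrane anchors lay on the other side of 0. Sdhc was at 62.0 RPKM in CD8 cells and 52.9 in CD4 cells, 1.17-fold (1.09 to 1.26), and Sdhd at 44.8 RPKM in CD8 cells and 42.6 in CD4 cells with an interval that holds 1. After rescaling the median of the 2 anchors turned, at -0.06 against 0.15. The 4 genes summed to 275 RPKM in CD8 cells and 290 in CD4 cells, a ratio of 0.946 that became 1.01 after centring on the median gene, and their median of -0.04 became 0.04.

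**Figure D2:**
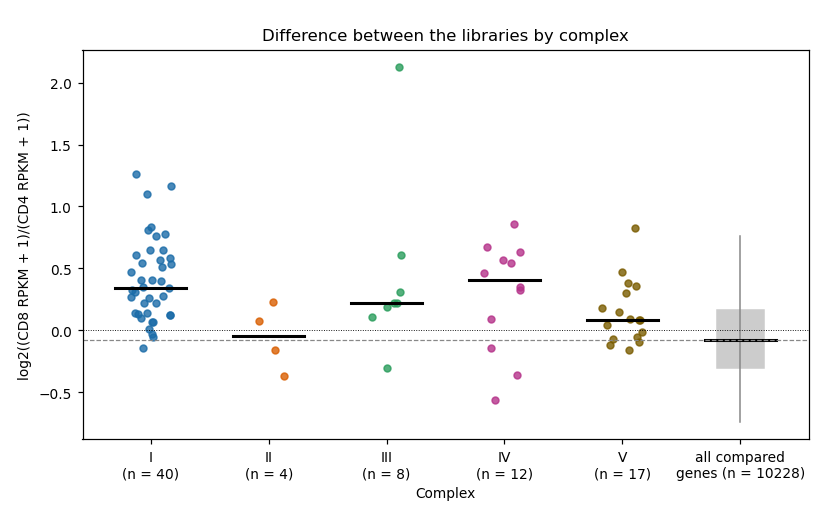
Difference between the libraries, log2((CD8 RPKM + 1)/(CD4 RPKM + 1)), for each compared member by complex, with a black bar at the median; the grey box and whiskers at the right give the middle 50% and 90% of all 10228 compared genes, the dotted line is 0 and the dashed line the median gene. Complexes I and IV have medians of 0.34 and 0.40, complex III 0.22, complex V 0.08 (-0.13 after rescaling) and complex II -0.04 (0.04 after centring on the median gene).

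Complex III, the cytochrome bc1 complex, had 7 of its 8 genes above 0, where 40.5% of all compared genes were. Its median was 0.22. After rescaling 5 of 8 were above 0, where 23.0% of all compared genes were, and the median was 0.01. The 8 genes summed to 746 RPKM in CD8 cells and 626 in CD4 cells, a ratio of 1.19. Uqcrq, a small subunit next to cytochrome b, stood apart from the others at 24.6 RPKM in CD8 cells and 4.88 in CD4 cells, a 5.05-fold difference (3.81 to 6.78). The interval uses the smallest whole reads that give these RPKM, 292 in CD8 and 60 in CD4, and at a length of 1491 bases the reads would be 876 in CD8 and 180 in CD4. It was the lowest complex III gene in both libraries. None of its 50-base windows occurs in another annotated gene and no exon of it overlaps one. Uqcr10, another small subunit, was at 77.4 RPKM in CD8 cells and 50.5 in CD4 cells (1.53-fold, 1.37 to 1.71). Uqcr11, also small, lay on the other side, at 39.6 RPKM in CD8 cells and 49.1 in CD4 cells, which is 1.24-fold higher in CD4 (1.09 to 1.41).

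The other 5 complex III genes were between 1.08-fold and 1.25-fold higher in CD8. Uqcrfs1, the Rieske iron-sulfur protein that takes electrons from ubiquinol, was at 60.3 RPKM in CD8 cells and 48.4 in CD4 cells. Uqcrc1, a core protein and among the highest of the complex, was at 119 RPKM in CD8 cells and 101 in CD4 cells. Uqcrc2, the other core protein, was at 84.6 RPKM in CD8 cells and 78.7 in CD4 cells, and 26.6% of its exon bases overlap Pdzd9 on the opposite strand. The core protein median of 0.16 turned to -0.05 after rescaling. Uqcrh, the hinge protein that helps cytochrome c bind, was the highest, at 273 RPKM in CD8 cells and 234 in CD4 cells. Uqcrb was at 67.6 RPKM in CD8 cells and 59.1 in CD4 cells.

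Complex IV, the cytochrome c oxidase, has tissue forms of several subunits, and no tissue form reached 1 RPKM in either library, while the widely expressed forms did. Of the 10 widely expressed forms 9 were above 0, where 40.5% of all compared genes were, with a median of 0.50. Toward CD8, 3 reached 1.5-fold, where 7.47% of all compared genes did. After rescaling 8 were above 0, where 23.0% of all compared genes were, with a median of 0.29 for the 10 forms. Cox8a, a small membrane subunit, was at 144 RPKM in CD8 cells and 79.0 in CD4 cells (1.82-fold, 1.69 to 1.97). Cox5b, which binds zinc on the matrix side, was at 152 RPKM in CD8 cells and 94.6 in CD4 cells (1.6-fold, 1.49 to 1.72). Cox6b1, which faces the intermembrane space near the cytochrome c site, was at 161 RPKM in CD8 cells and 103 in CD4 cells (1.56-fold, 1.38 to 1.77). Of their sequence, 25.9% of Cox5b windows and none of Cox8a or Cox6b1 occur in another annotated gene. Cox7a2, Cox7c and Cox7b followed, at 1.49-fold, 1.46-fold and 1.38-fold.

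Cox6c was at 105 RPKM in CD8 cells and 82.7 in CD4 cells, and Cox6a1 at 210 RPKM in CD8 cells and 168 in CD4 cells. Cox4i1, a regulatory subunit that binds ATP and the highest of the complex in CD8, was nearly level, at 363 RPKM in CD8 cells and 341 in CD4 cells (1.06-fold, 1.03 to 1.10). Cox5a, its neighbour on the matrix side, was the form below 0, at 47.5 RPKM in CD8 cells and 52.5 in CD4 cells. The largest difference toward CD4 among all members was that of Cox7a2l, also called SCAF1. It has been described as a factor that joins complex III to complex IV in supercomplexes, and whether its protein does so in mice of this background was not tested. Cox7a2l was at 262 RPKM in CD8 cells and 389 in CD4 cells, which is 1.48-fold higher in CD4 (1.44 to 1.53). It kept this direction centred on the median gene, rescaled and centred on genes of like length. Of its windows 19.8% occur in 1 other annotated gene.

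The 12 compared symbols of the complex IV prefix summed to 1673 RPKM in CD8 cells and 1471 in CD4 cells, a ratio of 1.14 that became 0.981 after rescaling. Without Cox7a2l and the non-subunit Cox4nb, which was at 5.26 RPKM in CD8 cells and 7.06 in CD4 cells, the 10 widely expressed forms summed to 1406 RPKM in CD8 cells and 1076 in CD4 cells, a ratio of 1.31. The median of these 10 forms was 0.29 after rescaling. Ndufa4, which goes by its complex I prefix here, is in neither sum. Of the tissue forms, Cox6a2, Cox7b2, Cox8b and Cox8c were listed at 0 in both libraries, which is not read as low expression. Cox4i2, the lung form, was listed at 0 in CD8 and at 0.336 RPKM in CD4. At its smallest whole length of 361 bases 3 reads of CD8 would be 0.348 RPKM. At 722 bases, the length that matched its annotation, they would be less. Cox6b2, the testis form, was at 0.140 RPKM in CD8 cells and 0.404 in CD4 cells. Cox7a1, the heart and muscle form, was at 0.695 RPKM in CD8 and listed at 0 in CD4. At its smallest whole length of 181 bases 3 reads of CD4 would be 0.670 RPKM. At 362 bases, the multiple nearest to an annotated length, they would be less. Among the tissue forms listed above 0, the largest share of a family total was 0.39%, for Cox6b2 in CD4.

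Within the Cox7a family the balance differed between the libraries. Cox7a2, the subunit of the enzyme itself, was at 83.0 RPKM in CD8 cells and 55.8 in CD4 cells and took 24.0% of the family total in CD8 and 12.6% in CD4. Cox7a2l took the rest apart from Cox7a1, 75.8% in CD8 and 87.4% in CD4. These shares do not depend on how the libraries are scaled.

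Complex V, the ATP synthase, held the most abundant member, Atp5b, and had the smallest positive median of the complexes as deposited. Its 17 symbols had a median of 0.08, which turned to -0.13 after rescaling and to -0.04 when each gene was set against genes of like length. They summed to 2704 RPKM in CD8 cells and 2457 in CD4 cells, a ratio of 1.10 that became 0.95 after rescaling. After rescaling the median of all compared genes was -0.29 and 23.0% of them were above 0. Of the 17 complex V symbols 5 were then above 0 and 12 below. The counting interval lay above 1 for 7 of them, where the background was 25.9%, and below 1 for 4, where it was 43.5%. After rescaling it lay above 1 for 4, against a background of 13.9%, and below 1 for 8, against 63.7%.

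The catalytic head, F1, was close to level. Atp5b, the catalytic beta subunit, was at 479 RPKM in CD8 cells and 504 in CD4 cells, and Atp5a1, the alpha subunit, at 333 RPKM in CD8 cells and 347 in CD4 cells. Atp5c1, the central gamma subunit that turns within the head, was at 103 RPKM in CD8 cells and 112 in CD4 cells. All 3 lay below 0 by 0.12 or less on the log2 scale, with intervals below 1; centred on the median gene 4 of the 5 F1 genes were above 0. The small subunits of the central stalk lay on the other side. Atp5e, the epsilon subunit, was at 237 RPKM in CD8 cells and 134 in CD4 cells (1.77-fold, 1.58 to 2.0) and was the 1 complex V gene past 1.5-fold. Atp5d, the delta subunit, was at 72.4 RPKM in CD8 cells and 55.2 in CD4 cells.

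In the peripheral stalk, which holds the head still, 3 of 4 genes were above 0, or 2 of 4 after rescaling. Atp5o, the OSCP subunit at the top of the stalk, was at 128 RPKM in CD8 cells and 99.3 in CD4 cells, and Atp5j, or F6, at 53.2 RPKM in CD8 cells and 43.0 in CD4 cells. Atp5h, subunit d, was at 309 RPKM in CD8 cells and 279 in CD4 cells, and Atp5f1, subunit b, at 111 RPKM in CD8 cells and 112 in CD4 cells. The membrane subunits Atp5j2, Atp5k and Atp5l were above 0 by 0.18 or less, and all 3 were below 0 after rescaling. Centred on genes of like length, all 3 were also below 0, with a median of -0.12. The F1 median was then 0.05, with 3 of 5 genes above 0. Atp5k, which helps ATP synthase to form dimers, was at 115 RPKM in CD8 cells and 108 in CD4 cells, with an interval that holds 1.

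The c ring turns with the proton flow, and its identical mature protein is made from Atp5g1, Atp5g2 and Atp5g3. Atp5g2 was at 233 RPKM in CD8 cells and 167 in CD4 cells, or 54.5% of the family in CD8 and 47.5% in CD4. Atp5g3 was at 144 RPKM in CD8 cells and 136 in CD4 cells, or 33.7% in CD8 and 38.7% in CD4. Atp5g1 was at 50.2 RPKM in CD8 cells and 48.7 in CD4 cells, or 11.7% in CD8 and 13.8% in CD4. The order of the 3 genes was the same in both libraries. Atp5g2 and Atp5g1 share 87.4% and 66.0% of their windows with other annotated genes, so the authors' counting could split their reads, and their values are uncertain. After rescaling the c ring median of 0.08 became -0.13. The 2 lowest symbols of the prefix are not subunits: Atp5s was at 1.70 RPKM in CD8 cells and 1.88 in CD4 cells, and Atp5sl at 22.2 RPKM in CD8 cells and 24.9 in CD4 cells.

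**Figure D3:**
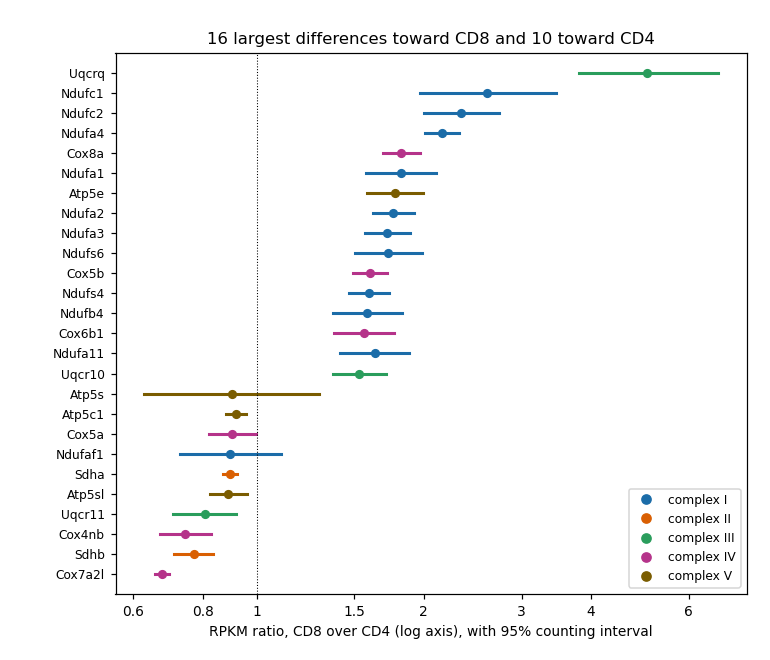
Ratio of the deposited RPKM, CD8 over CD4, on a log axis for the 16 members past 1.5-fold toward CD8 and the 10 with the largest differences toward CD4, ordered by log2((CD8 RPKM + 1)/(CD4 RPKM + 1)); bars are exact 95% counting intervals, which compare the libraries. Uqcrq lies at 5.05, the other 15 toward CD8 lie between 1.53 and 2.60, and Cox7a2l lies lowest at 0.675.

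Among all compared genes the shorter ones were more often higher in CD8, and the members are short. The length behind each RPKM was taken as the whole multiple nearest to an annotated one. Its median was 902 bases for the compared members and 2877 for all compared genes. In the shortest decile of compared genes, from 48 to 1068 bases, the 974 other genes had a median of 0.20 and 65.1% were higher in CD8. In the longest decile, from 6376 to 38555 bases, the median was -0.16 and 28.3% were higher in CD8. The 49 members in the shortest decile had a median of 0.36, and 45 of them were higher in CD8. In the next decile the 13 members had a median of 0.22 and the other genes 0.03, and in the decile after that the 8 members had 0.18 and the other genes -0.04.

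The members therefore lay above other genes of like length, by less than they lay above all genes. Centred on genes of the same length decile, their median was 0.18, 55 of 81 were above 0, 11 stayed at least 1.5-fold higher in CD8, and Cox7a2l became at least 1.5-fold higher in CD4. By complex the length-centred medians were 0.28 for complex I, -0.02 for II, 0.20 for III, 0.19 for IV and -0.04 for V. Among the members themselves, length and difference had a Spearman rho of -0.36 and a Pearson r of -0.31 over 81 genes, and the shorter 41, from 288 to 902 bases, held 12 of the 16 past 1.5-fold. Uqcrq, taken at 1491 bases, stood 2.12 above 0. Its smallest whole length was 497 bases, within the range of the shortest decile, so its place by length is uncertain. The part that length has in the members' difference beyond this centring was not tested.

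**Figure D4:**
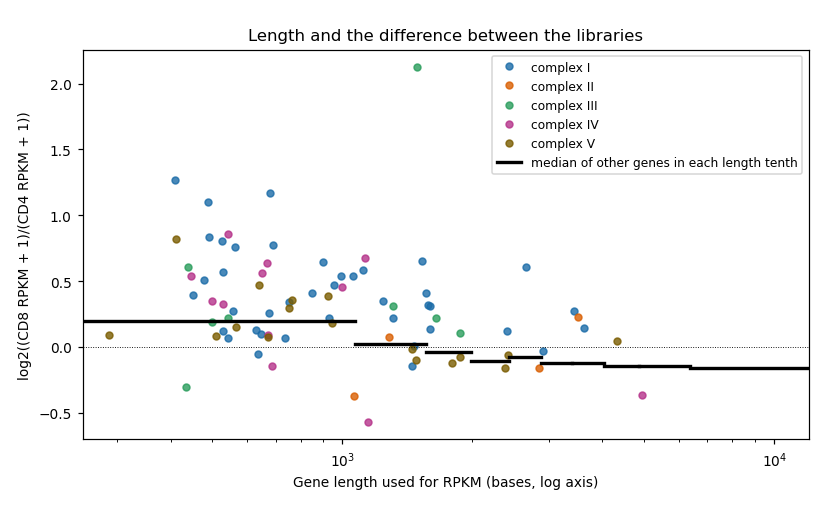
Difference between the libraries, log2((CD8 RPKM + 1)/(CD4 RPKM + 1)), of each compared member against the gene length used for RPKM in bases on a log axis, coloured by complex; black bars give the median of the other compared genes in each length decile. The bars lie at 0.20 in the shortest decile and -0.16 in the longest, without falling at every step, and 33 of the 49 members in the shortest decile lie above their bar.

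Sequence shared with other genes was common in this family, which has many processed pseudogenes. Windows were matched on either strand, so overlapping neighbours, such as Pdzd9 for Uqcrc2, are counted together with such copies. Of the 90 members 48 share at least 1 exact 50-base window with another gene of the GENCODE M21 transcripts, 31 share at least 10% and 6 share at least 50%. The 6 were Atp5g2, Atp5l, Atp5g1, Ndufa12, Cox7c and Atp5h. For 13 members an exon overlaps another gene of the files, such as Ndufa13 with Tssk6 on the opposite strand over 30.0% of its bases. Without the members that share at least 10% or overlap, 47 remained, their median was 0.23, 38 were above 0 and 10 passed 1.5-fold toward CD8. The 4 members past 2-fold were all among them.

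Other genes of the respiratory system lay on both sides of 0. Outside the symbol rule, 4 further genes of the chain were above 0 with a median of 0.32, and 3 of them stayed above 0 after rescaling. Usmg5, also Atp5md, a small ATP synthase subunit, was at 84.3 RPKM in CD8 cells and 40.1 in CD4 cells, a 2.11-fold difference. Cyc1, the cytochrome of complex III, was at 60.4 RPKM in CD8 cells and 46.9 in CD4 cells, the soluble carrier Cycs at 24.3 RPKM in CD8 cells and 22.1 in CD4 cells, and 2010107E04Rik, also Atp5mpl, at 143 RPKM in CD8 cells and 118 in CD4 cells. None of the 26 names listed for mitochondrially encoded subunits was found among the symbols, so they are not analysed here.

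Assembly factors, which insert cofactors and join subunits, had a median of -0.10, close to that of all genes. Of the 32 compared ones 10 were above 0, where 40.5% of all compared genes were. Surf1, an assembly factor of complex IV, was at 42.5 RPKM in CD8 cells and 35.1 in CD4 cells, and Lrpprc, which stabilises mitochondrial messenger RNA, at 32.9 RPKM in CD8 cells and 34.9 in CD4 cells. The 2 largest differences in the list were those of Cox17 and Cox11. Cox17, the copper chaperone, was at 45.5 RPKM in CD8 cells and 19.1 in CD4 cells (2.38-fold), and Cox11, which delivers copper to the enzyme, at 7.44 RPKM in CD8 cells and 4.52 in CD4 cells (1.65-fold). Other genes of copper delivery did not all lie on this side: Cox19 was at 12.9 RPKM in CD8 cells and 19.6 in CD4 cells, which is 1.51-fold higher in CD4, Sco1 at 4.82 RPKM in CD8 cells and 4.94 in CD4 cells, and Sco2 at 8.26 RPKM in CD8 cells and 5.59 in CD4 cells. On the log2 scale with 1 RPKM added, Tmem70, an assembly factor of ATP synthase, was the other one past 1.5-fold toward CD8, and Sdhaf1, of complex II, the 1 past it toward CD4. Cox19, Sco1, Sco2, Tmem70 and Sdhaf1 were named after their values were seen. The list holds the 4 Ndufaf members.

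Transcription factors and coactivators that control respiratory genes had a median of -0.13, and 4 of the 12 compared were above 0, a share near the background of 40.5%. Yy1 was at 51.7 RPKM in CD8 cells and 49.5 in CD4 cells, and Gabpb2, a partner of the ETS factor GABP, at 39.4 RPKM in CD8 cells and 43.3 in CD4 cells. Tfb2m, a mitochondrial transcription factor, differed most, at 15.4 RPKM in CD8 cells and 10.5 in CD4 cells. The coactivator Ppargc1b was at 1.94 RPKM in CD8 cells and 2.60 in CD4 cells. None of the 12 reached 1.5-fold. With each gene centred on its length decile, the medians of the assembly factors and of these regulators were 0.01 and 0.02, where that of the members was 0.18.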

How the data were processed

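Total RNA of sorted naive CD8 and CD4 T cells was depleted of ribosomal RNA and prepared with a SOLiD low-input protocol, per the labels' protocols. Per the submitters' processing notes, TopHat and HTSeq were used with the build mm9. The versions, the annotation, whether counting used strand and how multiply mapped reads were handled were not given in sources used here. The authors deposited 1 RPKM value per row. Each file had 26882 rows for 23167 symbols, and 2597 symbols stood on several rows with the same value and were counted once.

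Whole reads were recovered from the RPKM. Of 12735 symbols above 0 in both libraries, 99.984% gave whole reads in both at 1 pair of totals, within the printed precision. The annotated transcript length less 1 base per exon was whole in both for 14.9% of these symbols; in a check of 1000 genes 227 matched it, and 0 did with the CD8 total moved by 1000 reads. Other genes took the whole multiple nearest to an annotated length. Recovered reads summed to 1.08 (CD8) and 1.07 (CD4) times the totals. A multiple of reads and length cannot be told apart, so intervals use the smallest whole reads, which makes them wide. Intervals and the 3-read floor cover counting error only.

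The statistic was log2((CD8 RPKM + 1)/(CD4 RPKM + 1)) for genes at 1 RPKM or more in at least 1 library. The pseudocount understates differences of low genes. Members named were all those at least 1.5-fold apart, the 2 highest and lowest of each complex, isoform families, those at 0, and roles described whole; of other lists the 2 highest and the 2 with the largest difference. A few genes under these rules are not reported here by name. Promoters to show were picked after their values were seen. Members, lists and rules were chosen with earlier results of these data known. Alternatives were pseudocounts of 0.1 and 5 RPKM, no filter or 5 RPKM, centring, rescaling, length-decile centring, subunits only, leaving out the highest member and 5 length groups; leaving out members with shared or overlapping sequence and reads at the length nearest to an annotated one were added after seeing the data. GENCODE M21 transcripts gave lengths and shared windows. The read recovery was tested on simulated data. Python 3.11.15, numpy 2.4.6, scipy 1.17.1 and pandas 2.3.3 were used.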

Additional observations from a re-analysis of the deposited data

How the results depend on the processing

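With 1 library per cell type no library could be left out, and counting error is the only error known. No paired analysis was possible because each group has 1 library. The plan to leave out members with near-identical copies in the genome was not run, for want of a genome, and the transcript comparison replaced it. The members' median stayed positive under all alternatives, from 0.0773 to 0.352. A pseudocount of 5 RPKM left 2 members at least 2-fold higher in CD8 (Ndufa4 and Uqcrq).

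Centred on the median gene, the complex II median was 0.0366 and that of complex III 0.302, and the sum ratios were 1.42 for complex I, 1.01 for II, 1.27 for III, 1.21 for IV and 1.17 for V. Rescaled to a sum of 1000000, the medians were 0.0773 for all members, 0.137 for I, -0.255 for II, 0.00985 for III, 0.194 for IV and -0.132 for V, with sum ratios of 1.15, 0.817, 1.03, 0.981 and 0.95 in that order of complexes. Then 2 members (Ndufc1 and Uqcrq) passed 2-fold and 8 passed 1.5-fold toward CD8, 2 (Cox4nb and Cox7a2l) at least 1.5-fold higher in CD4, and 35 counting intervals lay above 1 and 24 below. Rescaling shifts all genes, as given above.

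Centred on genes of like length, the medians were 0.189 for complex IV and -0.035 for V, 2 members (Ndufc1 and Uqcrq) passed 2-fold toward CD8 and 1 (Cox7a2l) passed 1.5-fold toward CD4. Without shared or overlapping members, fewer genes were left: the medians were 0.312 for III and 0.565 for IV, with 10 at least 1.5-fold higher in CD8 and 38 of 47 above 0. Without the highest member of each complex the sum ratios were 1.29 for I, 0.998 for II, 1.16 for IV and 1.14 for V. In 5 length groups the shortest genes had a median of 0.0969, where 10 groups gave 0.214. With reads at the length nearest to an annotated one 55 intervals lay above 1 and 10 below.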

Other observations

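Other mitochondrial genes gave small differences on both sides. Of 7 genes often used to gauge mitochondrial content, 6 were above 0, where 40.5% of all compared genes were. The median of the 7 was 0.17, which turned to -0.04 after each library was rescaled to a sum of 1000000. That of all compared genes then stood at -0.29. Vdac2, an outer membrane channel, was at 88.4 RPKM in CD8 cells and 78.4 in CD4 cells. The import genes Timm23 and Tomm20 were at 77.3 and 39.3 RPKM in CD8 and at 68.8 and 32.9 RPKM in CD4. Citrate synthase, Cs, lay on the other side, at 62.9 RPKM in CD8 cells and 79.4 in CD4 cells.

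The other TCA cycle enzymes had a median of -0.09, with 3 of 11 above 0, where 40.5% of all compared genes were. Their median was 0.01 when set against genes of like length. Idh3b, a subunit of isocitrate dehydrogenase, was at 112 RPKM in CD8 cells and 99.0 in CD4 cells, and its partner Idh3a at 24.5 RPKM in CD8 cells and 17.3 in CD4 cells. Suclg2, a subunit of succinyl-CoA ligase, was at 22.5 RPKM in CD8 cells and 29.1 in CD4 cells. None of the 11 reached 1.5-fold.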
